A study of Mus musculus with 6 samples.

Results

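Chemokines are small secreted proteins that guide the movement of white blood cells. They are grouped by the spacing of their first cysteines into the CC, CXC, CX3C and XC families, and each binds 1 or several receptors of the G protein-coupled kind on the cells it attracts. In skin, keratinocytes, fibroblasts, endothelium and resident immune cells make them, some at rest and others only after cytokines such as interferon gamma or tumour necrosis factor have acted. Cyclosporin A, a drug that suppresses T cells, forms a complex with cyclophilin that inhibits calcineurin, the phosphatase that sends NFAT transcription factors to the nucleus.

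Chemokine ligands were taken as all probes whose accession maps to a symbol made of Ccl, Cxcl, Cx3cl or Xcl and a number. This gave 41 of the 41174 probes on the array, for 34 genes: 20 of the CC family, 12 of the CXC family, Cx3cl1 and Xcl1. Of these genes 27 had 1 probe and 7 had 2. In the RefSeq table of assembly GRCm38.p6, 44 symbols match the rule. The 10 not read by a named probe were Ccl21a, Ccl21b, Ccl21d, Ccl26, Ccl27b, Cxcl11, Ccl16-ps, Ccl19-ps1, Ccl19-ps2 and Ccl19-ps3, and 5 of the 10 are listed there as pseudogenes, Cxcl11 among them.

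The treated samples were back skin of C57/BL mice 2, 4 and 7 days after cyclosporin A, and each was set against back skin of C57/BL mice the same number of days after ethanol. Total RNA was hybridised to 6 dual-colour Agilent arrays, 2 per day, with cyclosporin A skin in Cy5 and ethanol skin in Cy3 on each array. The labels call the arrays of a day biological replicates and name no separate animals, and dose, age and sex are not given in the sources used here, so p-values measure only the spread between these samples. Dyes were not swapped and all day 7 arrays lay on a slide of their own. A gene's own dye effect therefore cannot be told apart from treatment, nor a slide effect from day 7.

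Ratios are log2 of cyclosporin A over ethanol, so that a value below 0 is lower in cyclosporin A skin. Signals are spot intensities after the same normalization, scaled to be comparable across arrays, and they are not compared between probes. Values of the 6 arrays are given in the order day 2 replicates 1 and 2, day 4 replicates 1 and 2, day 7 replicates 1 and 2. A gene was called at a limma p-value, adjusted by Benjamini-Hochberg over all genes tested, under 0.05. Median spot intensity was 134.5 to 187 in the cyclosporin A channel and 203 to 277 in the ethanol channel. Of the 41174 probes that are not controls, 60% to 68.9% had a spot well above background in the cyclosporin A channel and 43.6% to 56.5% in the ethanol channel. All 7 skin markers listed (Krt5, Krt14, Krt10, Lor, Col1a1, Col3a1 and Dcn) were measured. All 8 genes of growing hair follicles listed were called higher at day 7, as were 2.36% of all genes. Of these 8, Hoxc13, Krt33a and Krt34 were at background in ethanol skin on every array and could enter the test only through cyclosporin A skin. All 7 skeletal muscle genes listed were tested, and 3 were called lower at day 7, as were 0.637% of all genes.

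The chemokines that were lower in cyclosporin A skin were Cxcl9 and Cxcl10, which attract activated T cells through the receptor Cxcr3 and are classically induced by interferon gamma. Both genes lie on the minus strand of mouse chromosome 5. The 250 bases before their starts are shown (RefSeq, build GRCm38.p6, Cxcl9 at chr5:92328080-92328329 and Cxcl10 at chr5:92348890-92349139, 5′ to 3′ along the gene) because these are the neighbouring family members that were both called lower. Capitals mark matches on either strand to the interferon-stimulated response element (GAAA, any 2 bases, GAAA), the gamma-activated site TTCNNNGAA or the NF-kappaB consensus.
Cxcl9: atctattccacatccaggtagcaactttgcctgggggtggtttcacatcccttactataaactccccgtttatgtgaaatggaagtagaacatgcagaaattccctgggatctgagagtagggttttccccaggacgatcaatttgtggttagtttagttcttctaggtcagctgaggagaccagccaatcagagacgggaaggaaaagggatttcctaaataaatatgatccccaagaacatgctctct
Cxcl10: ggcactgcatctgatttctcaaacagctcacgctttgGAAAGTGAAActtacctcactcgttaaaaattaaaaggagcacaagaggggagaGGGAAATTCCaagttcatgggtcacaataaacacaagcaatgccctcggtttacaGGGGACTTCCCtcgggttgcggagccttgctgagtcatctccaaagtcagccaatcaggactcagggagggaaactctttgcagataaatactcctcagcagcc

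The Cxcl10 window held 4 matches. The interferon-stimulated response element stood at bases -213 to -204 from the start, and NF-kappaB matches stood at -159 to -150, -104 to -95 and -103 to -94, the last pair overlapping. The Cxcl9 window held 0 matches, which says only that these letters are not in these 250 bases. Among all 32851 promoter windows of the same length, 2.98% held the interferon-stimulated response element, 7.02% the gamma-activated site and 7.25% the NF-kappaB consensus. Windows were given for 24 of the 34 chemokine genes, as 27 records. Of these, 3 held the interferon-stimulated response element (Ccl19, Cxcl10 and Cxcl14), 2 the gamma-activated site (Ccl17 and Cxcl14) and 7 the NF-kappaB consensus (Ccl1, Ccl9, Ccl20, Cxcl1, Cxcl2, Cxcl3 and Cxcl10).

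Most chemokine genes were measurable in both kinds of skin. A spot counted as detected when the scanner software marked it well above background. By that flag 21 of the 34 genes were detected in both channels of all 6 arrays. Ccl4, an attractant of T cells and monocytes, and Xcl1, which attracts the dendritic cells that bear Xcr1, were detected in cyclosporin A skin on all 6 arrays and in ethanol skin on 4, not on replicate 1 of day 2 or of day 7. Ccl20, the ligand of Ccr6, was detected in cyclosporin A skin on 5 arrays and in ethanol skin on 1. Its signal was 104 to 128 in cyclosporin A skin and 90.4 to 116 in ethanol skin, and these ranges overlap. Ccl28, a ligand of Ccr10 that epithelia make, was detected in cyclosporin A skin on 5 arrays and in ethanol skin on 0. Its signal was 106 to 144 in cyclosporin A skin and 84.6 to 147 in ethanol skin, and these ranges overlap. Ccl20 and Ccl28 entered the test only through their cyclosporin A channel.

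**Figure D1:**
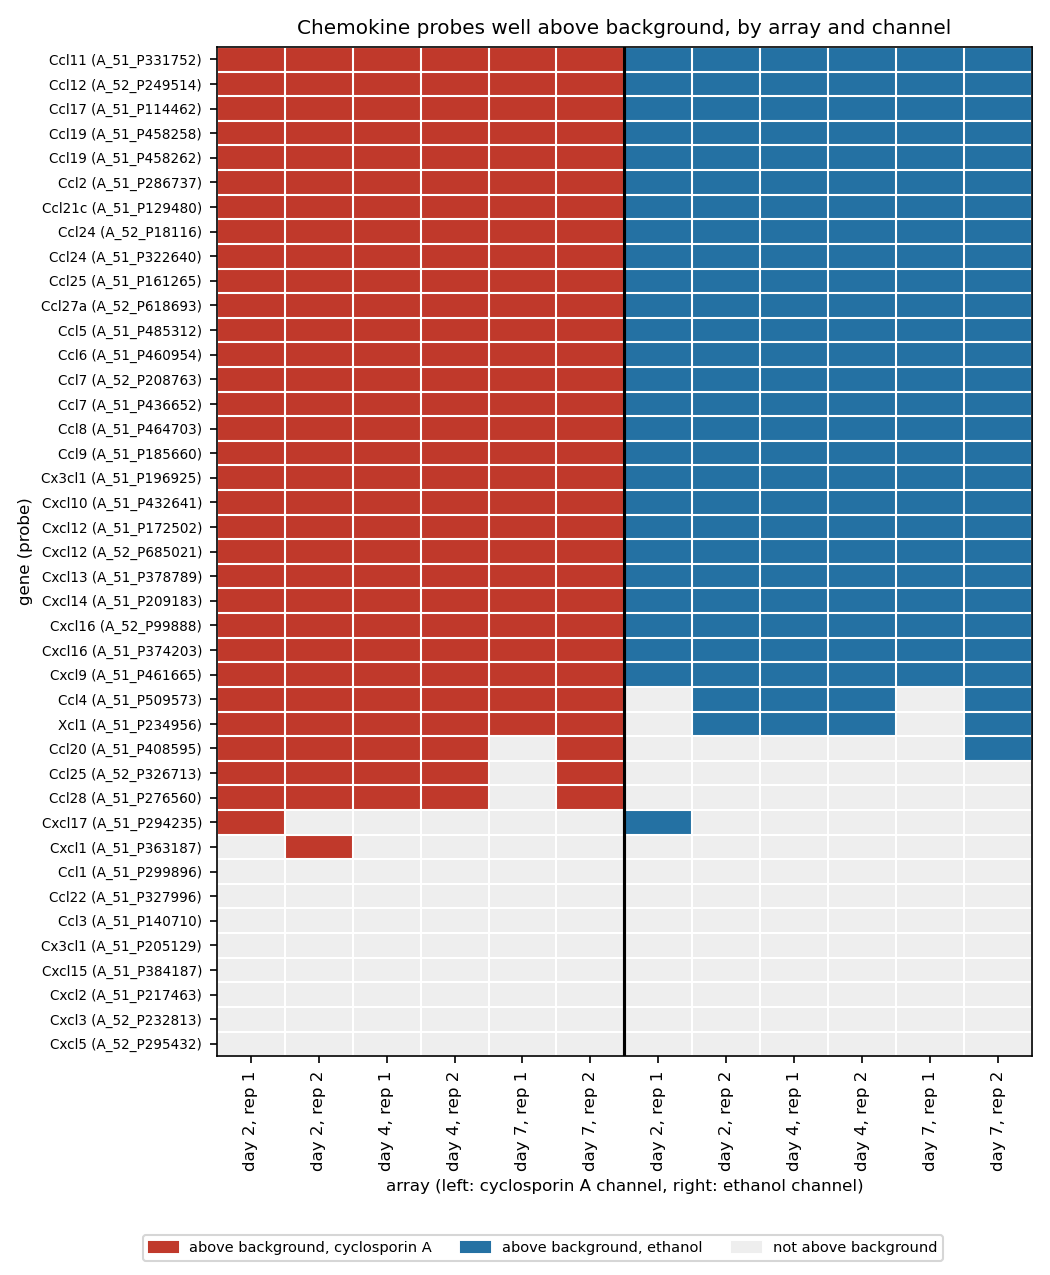
Detection of the 41 chemokine probes (rows, gene with probe name) on the 6 arrays (columns), cyclosporin A channel on the left and ethanol channel on the right. Filled cells are spots well above background. The 8 rows at the bottom are empty in both channels, and Ccl20, Ccl28 and the second Ccl25 probe are filled almost only on the cyclosporin A side.

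The neutrophil-attracting CXC ligands, which carry the ELR motif and mostly act through Cxcr2, were at background. Of the 5 on the array (Cxcl1, Cxcl2, Cxcl3, Cxcl5 and Cxcl15), 4 were detected in no channel of any array, and Cxcl1 was detected once, in cyclosporin A skin of day 2 replicate 2. Ccl1, a ligand of Ccr8, Ccl22, a ligand of Ccr4, and Ccl3 were also detected on no array. Cxcl17, a mucosal chemokine, was detected on day 2 replicate 1 alone, in both channels. Its signal there was 188 in cyclosporin A skin and 721 in ethanol skin, a log2 ratio of -1.94. On the other arrays its signal was 65.5 to 73.6 in cyclosporin A skin and 65.3 to 79.2 in ethanol skin. These 9 genes did not pass the filter on dim probes, which kept probes detected on both arrays of some day in at least 1 of the channels, and they were not tested. The filter left 25 chemokine genes (31 probes) of 22756 genes tested. Of the 22756, 9277 were probes without a symbol, each counted as a gene, so shares of all genes include them. Ccl8 was tested on 5 arrays, since its spot on day 4 replicate 1 was marked as an outlier.

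Averaged over days, 3 of the 25 tested chemokine genes were called (12%), against 13.1% of all genes tested. Cxcl9 and Cxcl10 were lower (3.4% of all genes were called lower) and Ccl25 was higher (9.68% of all genes were called higher). The share of called chemokines was near that of all genes. At an unadjusted p under 0.05 it was the same number, 3 of 25 (12%), a smaller share than the 32.5% of all genes. The median log2 ratio of the 25 genes was -0.02, with 10 above 0 and 15 below, and that of all genes was 0.03. Centring each array on its median in place of loess moved the median of all genes to 0.28 and called 12 chemokine genes, 9 higher and 3 lower, with 59.7% of all genes called. Cxcl9, Cxcl10 and Ccl25 kept their direction under each scaling.

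**Figure D2:**
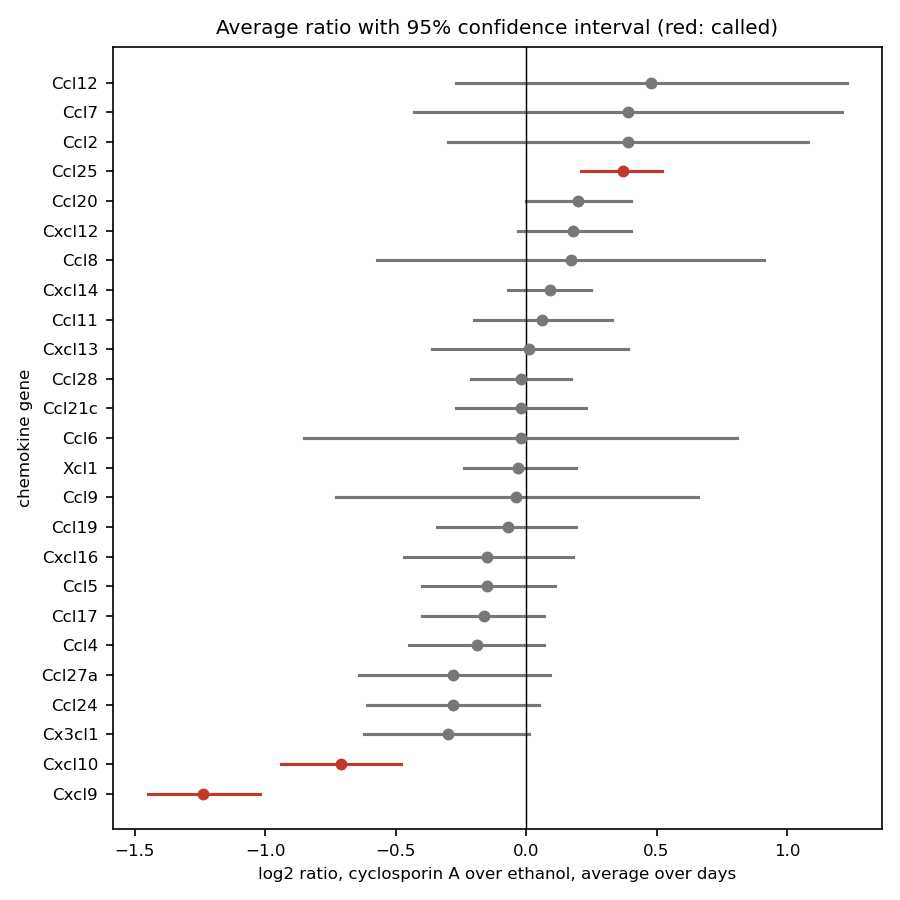
Log2 ratio of cyclosporin A over ethanol averaged over days (points) with 95% confidence intervals from limma (bars) for the 25 tested chemokine genes, red where called. Cxcl9 (-1.24) and Cxcl10 (-0.71) lie below 0 and Ccl25 (0.37) above it. The widest intervals belong to Ccl6, Ccl7, Ccl8, Ccl12, Ccl9 and Ccl2.

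Cxcl9 had the largest average change of the tested chemokines, 2.35-fold lower in cyclosporin A skin. The size of this change depended on the processing. The average log2 ratio was -1.24 here, -1.89 with the scanner software's processed signals and -1.05 under median centring. Its signal was 199, 181, 194, 132, 219 and 148 in cyclosporin A skin, against 630, 450, 471, 367, 331 and 313 in ethanol skin. The 2 kinds of skin did not overlap. The log2 ratio was -1.66, -1.31, -1.28, -1.48, -0.60 and -1.08, below 0 on every array. Its mean over days was -1.24 (SE 0.09, 95% interval -1.45 to -1.02, adjusted p = 0.00342, 6 arrays). By day the ratio averaged -1.49 ± 0.25 at day 2, -1.38 ± 0.14 at day 4 and -0.84 ± 0.34 at day 7 (SD, n = 2 each). Of these, day 7 was called (SE 0.16, 1.79-fold lower, adjusted p = 0.0475), whereas the adjusted p was 0.471 at day 2 and 0.179 at day 4. The unadjusted limma p was 4.24e-05 at day 2, 6.8e-05 at day 4 and 0.00132 at day 7. It was thus largest on the only day called, since the adjustment depends on the p-values of all genes tested for that day. No difference between days was called for Cxcl9, and day 7 minus day 2 was 0.65 (SE 0.23, 95% interval 0.11 to 1.19, adjusted p = 0.72). In bulk skin, fewer cells of a type and less RNA per cell cannot be told apart.

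Cxcl10 was lower on the same 6 arrays by a smaller amount. Its signal was 200, 155, 209, 226, 301 and 174 in cyclosporin A skin, against 409, 286, 339, 328, 358 and 322 in ethanol skin. Only day 7 replicate 1 of cyclosporin A skin (301) reached into the range of ethanol skin, above the day 2 replicate 2 value of 286. The log2 ratio was -1.03, -0.88, -0.69, -0.53, -0.25 and -0.89, with a mean over days of -0.71 (SE 0.10, 95% interval -0.94 to -0.48, 1.64-fold lower, adjusted p = 0.013). That mean was -1.20 with the scanner software's processed signals and -0.55 under median centring. No single day was called, with an adjusted p of 0.471 at day 2, 0.208 at day 4 and 0.124 at day 7. The unadjusted limma p ran the other way, with 0.000808 at day 2, 0.00835 at day 4 and 0.0119 at day 7. Of the 24 tested chemokines with a ratio on every array, Cxcl9 and Cxcl10 were the 2 below 0 on all 6, as were 8.13% of all genes with 6 ratios.

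**Figure D3:**
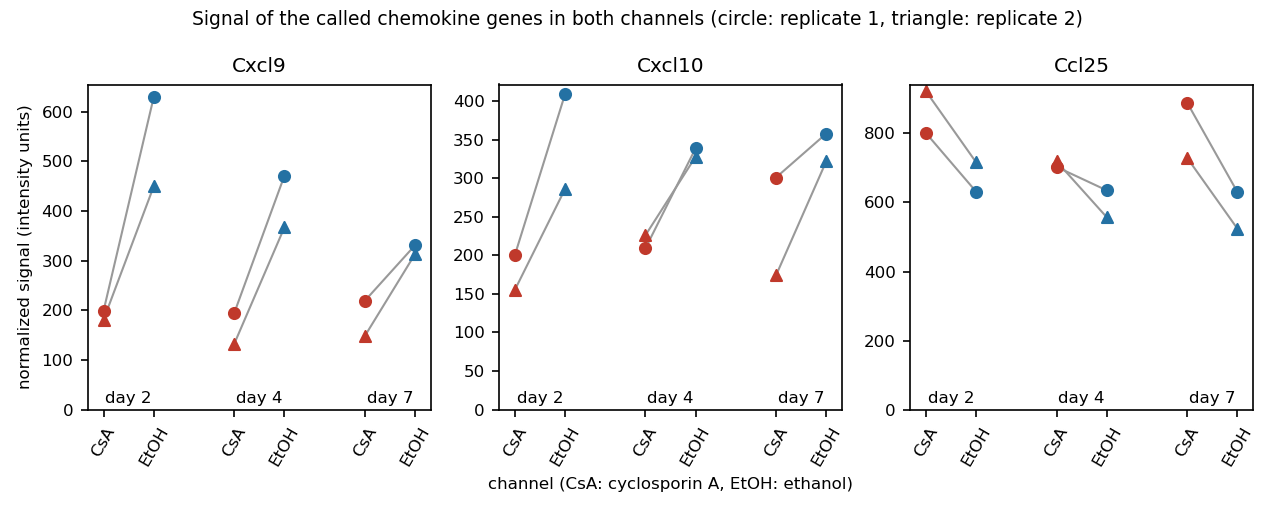
Normalized signal (intensity units, axis from 0) of Cxcl9, Cxcl10 and Ccl25 in cyclosporin A skin (CsA, red, left of each pair) and ethanol skin (EtOH, blue), with a line joining the 2 channels of each array. Every line rises toward ethanol for Cxcl9 and Cxcl10 and falls toward ethanol for Ccl25.

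The day 7 call of Cxcl9 was lost in 10 of 15 alternatives, among them no filter (adjusted p = 0.0546), the replicate block (0.0927) and leaving out either array of day 4 or of day 7 (0.107 to 0.245). Both average calls also moved with the arrays that entered the fit. With day 4 replicate 2 left out, the adjusted p became 0.0538 for Cxcl9 and 0.0758 for Cxcl10, and with day 4 replicate 1 left out, 0.04 for Cxcl9 and 0.0643 for Cxcl10. The mean ratio then stayed between -1.27 and -1.20 for Cxcl9 and between -0.74 and -0.69 for Cxcl10.

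Cxcr3, the receptor of both ligands on T cells, had an average log2 ratio of 0.15 (SE 0.13, adjusted p = 0.466). Markers of cells that make or answer these ligands moved in part. Of 8 listed T cell markers 7 were tested and 1 was called lower on average (Cd5, log2 ratio -0.43, adjusted p = 0.0308), and their summed signal was 2346 to 3634 in cyclosporin A skin and 2811 to 3416 in ethanol skin. Of 8 listed markers of Langerhans and other antigen-presenting cells, 3 were called lower on average (Cd74, H2-Aa and H2-Eb1). These 3 serve antigen presentation by MHC class II. Not called were Cd207 (average 0.19), Epcam (0.00), Itgax (-0.17), H2-Ab1 (-0.29) and Ccr7 (-0.31). The summed signal of the 8 was 50420 to 79491 in cyclosporin A skin and 73087 to 107515 in ethanol skin. Of all genes, 3.4% were called lower on average. None of the markers on either list that were tested was at background in cyclosporin A skin. Their part in the Cxcl9 and Cxcl10 ratios was not tested.

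Of the 20 listed inducers of chemokines and parts of the NF-kappaB pathway, 18 were tested. On average 2 were called lower and 1 higher, beside 13.1% of all genes called (3.4% lower and 9.68% higher). Irf1, a transcription factor that interferon induces, was lower on all 6 arrays, with log2 ratios of -0.73, -0.50, -0.50, -0.43, -1.17 and -0.59. Its mean was -0.65 (SE 0.09, adjusted p = 0.0137), and at day 7 it was called as well (-0.88, adjusted p = 0.0425). Nfkb2, an NF-kappaB subunit, averaged -0.41 (SE 0.10, adjusted p = 0.0473). Csf2, the cytokine GM-CSF, averaged 0.37 (SE 0.07, adjusted p = 0.0261) and was detected in cyclosporin A skin on 6 arrays and in ethanol skin on 1. It could therefore pass the filter only through cyclosporin A skin, the group where it was higher, and its ratio is taken against a channel mostly at background. Ifng, the gene of interferon gamma itself, was detected on 4 arrays in cyclosporin A skin and 2 in ethanol skin, and its average log2 ratio was -0.06 (adjusted p = 0.642). Tnf, the gene of tumour necrosis factor, averaged -0.03 (adjusted p = 0.789).

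Ccl25, which attracts T cells through Ccr9 and is best known from thymus and small intestine, was the chemokine called higher. The probe tested had a signal of 801, 922, 703, 719, 889 and 729 in cyclosporin A skin, against 631, 716, 635, 557, 630 and 524 in ethanol skin. The ranges overlap at their edges (703 and 716), and cyclosporin A skin was the higher on every array. Its log2 ratio was 0.34, 0.36, 0.15, 0.37, 0.50 and 0.48, with a mean of 0.37 (SE 0.07, 95% interval 0.21 to 0.52, 1.29-fold higher, adjusted p = 0.0216). At day 7 it averaged 0.49 (adjusted p = 0.0775). A ratio above 0 on all 6 arrays was seen for 15.7% of all genes. The second, dimmer probe of Ccl25 was not above background in ethanol skin on any array, and its ratio averaged 0 with the opposite sign on 2 arrays. The mean of both probes was 0.18 with an adjusted p of 0.0904, and leaving out any 1 array ended the call (adjusted p 0.054 to 0.104). Ccr9 averaged 0.01 (adjusted p = 0.97).

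Day by day, 0 of the 25 genes were called at day 2 (0% of all genes were called) and 0 at day 4 (0.00439% of all genes). At day 7 it was 1 of 25 (4%, Cxcl9), against 2.99% of all genes, 2.36% being higher and 0.637% lower in cyclosporin A skin. Without adjustment, a p under 0.05 was reached by 6 of the 25 chemokine genes at day 2, 4 at day 4 and 5 at day 7, against 9.69%, 15% and 22.1% of all genes. The share of chemokine genes was larger at day 2 and near that of all genes at days 4 and 7. The median log2 ratio of the 25 genes was -0.01 at day 2, 0.09 at day 4 and -0.05 at day 7, beside 0.04, 0.04 and 0.03 for all genes. The median absolute difference between the 2 arrays of a day, whichever was higher, was 0.68 for the chemokines and 0.22 for all genes at day 2. At day 4 it was 0.28 and 0.19, and at day 7 it was 0.36 and 0.22.

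**Figure D4:**
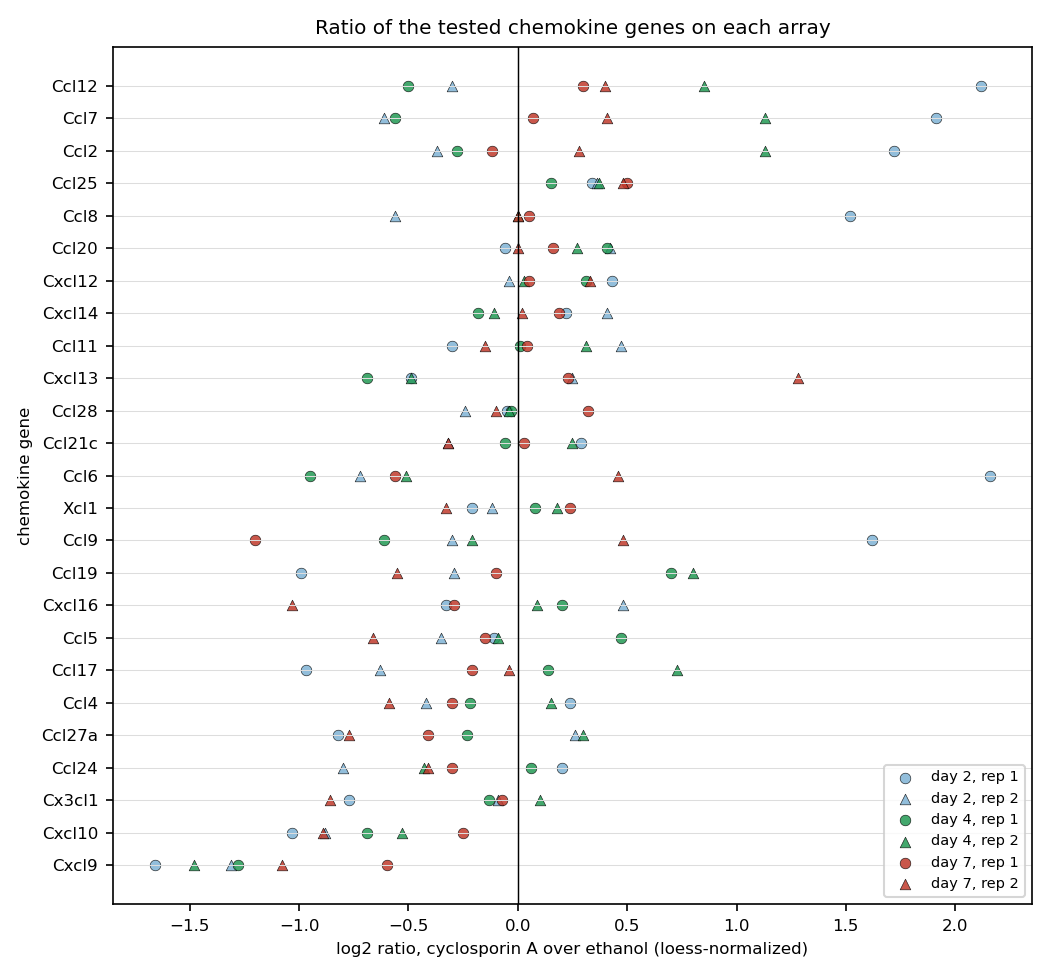
Log2 ratio of cyclosporin A over ethanol on each array (circles replicate 1, triangles replicate 2, colours the days) for the 25 tested chemokine genes, sorted by their average. Cxcl9 and Cxcl10 lie left of 0 on every array, Ccl25 right of it, and 6 CC ligands have a day 2 replicate 1 value above 1.5 far from the rest.

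The inflammatory CC ligands, which attract monocytes and T cells through receptors such as Ccr1 and Ccr2, differed widely between replicates. None of the 8 tested (of 9 listed) was called in any comparison. Day 2 replicate 1 stood apart: their median ratio on the 6 arrays was 1.67, -0.39, -0.50, 0.07, -0.14 and 0.34. At day 2, replicate 1 exceeded replicate 2 by over 1.5 log2 units for 6 of them (Ccl2, Ccl6, Ccl7, Ccl8, Ccl9 and Ccl12), as it did for 0.709% of all genes.

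Ccl12, a ligand of Ccr2 found in mice, had a signal of 1907, 319, 633, 448, 585 and 516 in cyclosporin A skin, against 438, 393, 892, 248, 476 and 391 in ethanol skin. Its log2 ratio was 2.12, -0.30, -0.50, 0.85, 0.30 and 0.40. The groups overlap apart from the first array, and the average of 0.48 (SE 0.31, adjusted p = 0.335) was 0.08 without that array.

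Ccl2, the main attractant of monocytes through Ccr2, was likewise highest on day 2 replicate 1 and next on day 4 replicate 2. Its signal was 3257, 806, 1447, 1544, 831 and 1121 in cyclosporin A skin, against 992, 1041, 1761, 706, 905 and 926 in ethanol skin. Only the first array of cyclosporin A skin lay above the range of ethanol skin. The log2 ratio was 1.72, -0.37, -0.28, 1.13, -0.12 and 0.28 and its average 0.39 (SE 0.29, adjusted p = 0.392), or 0.04 without day 2 replicate 1. Ccl7, another Ccr2 ligand, had a signal of 2350, 476, 941, 895, 743 and 768 in cyclosporin A skin, against 625, 727, 1383, 409, 708 and 578 in ethanol skin, and again only the first array stood outside. Its ratio was 1.91, -0.61, -0.56, 1.13, 0.07 and 0.41. The average was 0.39 (SE 0.34, adjusted p = 0.472), and -0.03 without day 2 replicate 1. A second Ccl7 probe had the same sign on every array, with an average of 0.34.

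Ccl6 and Ccl9, myeloid ligands of Ccr1 in mice, were highest on day 2 replicate 1. Ccl6 had ratios of 2.16, -0.72, -0.95, -0.51, -0.56 and 0.46, and Ccl9 had 1.62, -0.30, -0.61, -0.21, -1.20 and 0.48. For both, the average was within 0.04 of 0 and the replicates of day 7 stood on opposite sides of it. Ccl8, a ligand of Ccr8 in mice, had ratios of 1.52 and -0.56 at day 2, 0.00 on the day 4 array that was kept, and 0.05 and 0.00 at day 7. When each array was centred on its median in place of loess, these ratios became 2.49, 0.45, 0.77, 0.85 and 0.99, and with the scanner software's processed signals 1.37, -0.74, -0.13, -0.05 and -0.09. The direction of the Ccl8 ratio changed with the scaling on the 4 arrays with a value other than day 2 replicate 1.

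Ccl4 and Ccl5, which attract T cells, did not share the high value of day 2 replicate 1. Ccl4 had ratios of 0.24, -0.42, -0.22, 0.15, -0.30 and -0.59, with a day 7 mean of -0.45 (SE 0.19, adjusted p = 0.227). Its signal was 224, 128, 151, 171, 176 and 110 in cyclosporin A skin and 189, 171, 176, 155, 217 and 166 in ethanol skin, and the groups overlap. Ccl5 ratios ranged from -0.66 to 0.47.

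Markers of macrophages, and some of other cell types, were also high on the array that stood apart. Of 8 listed, 6 were on the array and all 6 were tested, and 1 was called lower on average (Cd163, -0.63, adjusted p = 0.0433), beside 3.4% of all genes. The other macrophage markers were not called, with averages from -0.43 (Cd14) to 0.18 (Mrc1). On day 2 replicate 1 the ratio was 2.08 for Fcgr1, 1.22 for Mrc1 and 0.71 for Lyz2, and on day 2 replicate 2 it was -0.50, -0.12 and -0.81. The median ratio of the 6 markers was 0.65, -0.48, -0.08, -0.52, -0.62 and -0.46. Their summed signal was 152011, 95708, 118253, 101010, 109539 and 100329 in cyclosporin A skin, against 94788, 160560, 124962, 176399, 148365 and 159195 in ethanol skin. Cyclosporin A skin had the higher sum on day 2 replicate 1 and the lower sum on the other 5 arrays. Among the endothelial and skin markers, Lyve1 had a ratio of 2.68 on day 2 replicate 1 and 0.69 on replicate 2, Col3a1 1.45 and 0.10, Col1a1 0.86 and -0.15, and Kdr 0.81 and -0.16. Other markers on these lists were below 0 on day 2 replicate 1. Krt5 had -0.54 there and 0.16 on replicate 2, Krt14 -0.44 and 0.49, and Lor -0.26 and 0.78. Pecam1 had -0.10 and -0.53, and Tie1 -0.03 and -0.31. Over the whole lists, the median ratio on these arrays was 0.21 and -0.16 for the 6 endothelial markers tested, and 0.22 and 0.16 for the 7 skin markers. The part of any of these cell types in the ratios of the CC ligands was not tested.

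**Figure D5:**
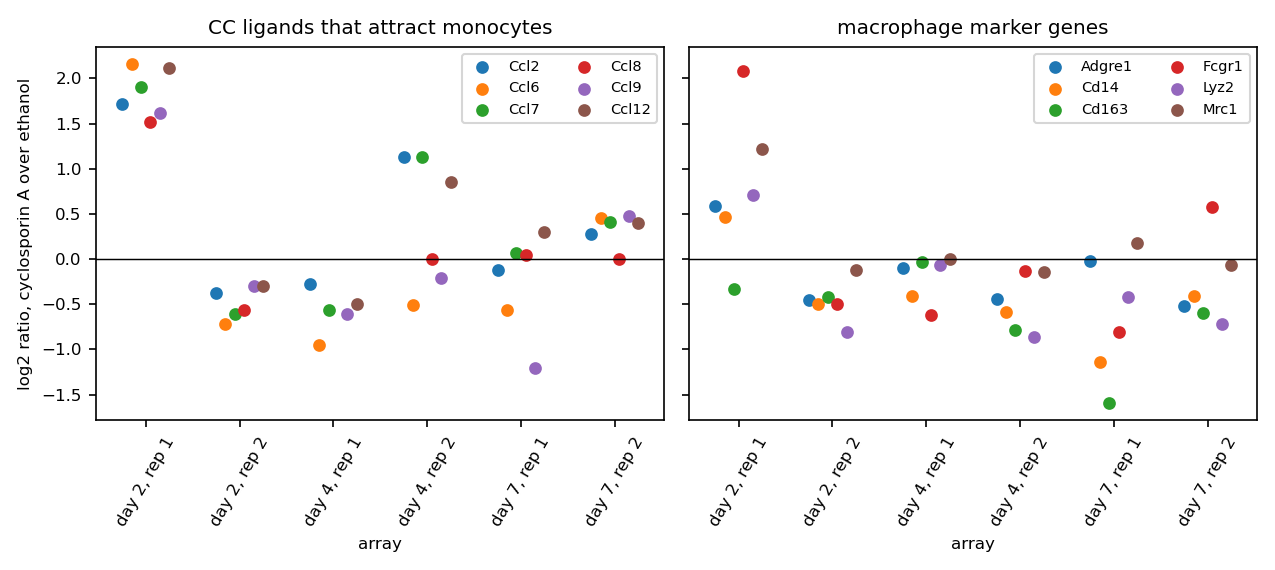
Log2 ratio of cyclosporin A over ethanol on each array for 6 of the inflammatory CC ligands (left) and 6 macrophage markers (right). All 6 ligands exceed 1.5 on day 2 replicate 1 and lie below 0 on day 2 replicate 2, and 5 of the 6 markers are above 0 on the first and all 6 below 0 on the second.

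The eotaxins attract eosinophils through Ccr3, and neither of the 2 tested was called. Ccl24 had ratios of 0.20, -0.80, 0.06, -0.43, -0.30 and -0.41 and an average of -0.28 (SE 0.14, adjusted p = 0.214). Its signal was 3667, 3877, 3340, 2575, 3145 and 2957 in cyclosporin A skin, against 3182, 6740, 3200, 3462, 3874 and 3937 in ethanol skin. The groups overlap, and the average turned to 0.37 under median centring. Ccl11 ratios ranged from -0.30 to 0.47 (average 0.06).

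Ccl17, the Ccr4 ligand that draws skin-homing T cells, and Ccl19, a Ccr7 ligand that brings dendritic and T cells to lymph nodes, had similar patterns over days. Ccl17 had ratios of -0.97, -0.63, 0.14, 0.73, -0.21 and -0.04, and Ccl19 had -0.99, -0.29, 0.70, 0.80, -0.10 and -0.55. Both were below 0 on both arrays of day 2 and above 0 on both arrays of day 4. Under median centring Ccl17 kept these signs, with -0.63 and -0.31 at day 2. Ccl19 then had -0.17 and 0.55 at day 2, 1.61 and 1.41 at day 4, and 0.53 and 0.21 at day 7. The difference of day 4 minus day 2 was 1.24 (SE 0.24, unadjusted p = 0.00156) for Ccl17 and 1.39 (SE 0.27, unadjusted p = 0.00155) for Ccl19. Neither passed adjustment (adjusted p = 0.999 for each). A second Ccl19 probe had the same sign as the first on all 6 arrays, with day means of -0.80, 0.59 and -0.57.

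No chemokine gene was called in any difference between days, where 0% of all genes were called for day 4 minus day 2, 0.202% for day 7 minus day 4 and 0.264% for day 7 minus day 2. At an unadjusted p under 0.05 the chemokine genes numbered 3, 4 and 2 of 25, against 2.24%, 4.46% and 6.14% of all genes. The chemokine share was larger for the first and second of these differences and near that of all genes for the last.

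Among the other homing ligands, Cxcl13, which guides B cells through Cxcr5, varied most. Its ratio was -0.49, 0.25, -0.69, -0.49, 0.23 and 1.28. The signal was 378, 561, 293, 200, 215 and 750 in cyclosporin A skin, against 532, 471, 474, 281, 183 and 309 in ethanol skin. The groups overlap, and the day 7 mean of 0.76 (SE 0.27, adjusted p = 0.174) rested mainly on replicate 2. Ccl21c, which with Ccl19 binds Ccr7, had ratios between -0.32 and 0.29. Ccl21a, Ccl21b and Ccl21d are near-identical copies of it, and its probe may read them as well.

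Ccl27a is made by keratinocytes and attracts skin-homing T cells through Ccr10. Its ratio was -0.82, 0.26, -0.23, 0.30, -0.41 and -0.77. The signal was 6077, 9873, 7005, 5472, 6186 and 3834 in cyclosporin A skin, against 10760, 8229, 8229, 4432, 8192 and 6534 in ethanol skin. Both day 7 arrays were below 0 (mean -0.59, SE 0.26, adjusted p = 0.251), the groups overlap, and under median centring the day 7 mean was 0.04. Its probe may also read Ccl27b, a near-identical copy. Ccl20 ratios ranged from -0.06 to 0.42 and Ccl28 ratios from -0.24 to 0.32.

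The CXC ligands that skin makes at rest were not called. Cxcl16, a membrane-bound ligand of Cxcr6, had ratios of -0.33, 0.48, 0.20, 0.09, -0.29 and -1.03. Its signal was 905, 1144, 1155, 1072, 1116 and 741 in cyclosporin A skin, against 1140, 820, 1007, 1009, 1361 and 1511 in ethanol skin. At day 7 both replicates were lower in cyclosporin A skin (mean -0.66, SE 0.24, adjusted p = 0.176), and the groups overlap over all days. A second Cxcl16 probe differed in sign on 2 arrays, with a day 7 mean of -0.69. Cxcl12, a stromal ligand of Cxcr4, had ratios from -0.04 to 0.43 by 1 probe and from -0.63 to 0.27 by another, with opposite signs on 3 arrays. Cxcl14, abundant in epithelia, ranged from -0.18 to 0.41.

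Cx3cl1, the tethered ligand of Cx3cr1 on monocytes, had ratios of -0.77, -0.09, -0.13, 0.10, -0.07 and -0.86. Its signal was 1511, 2057, 1982, 2157, 2457 and 1232 in cyclosporin A skin, against 2576, 2191, 2176, 2017, 2572 and 2242 in ethanol skin. The groups overlap, with the low values in cyclosporin A skin on day 2 replicate 1 and day 7 replicate 2. The average of -0.30 (SE 0.13, adjusted p = 0.169) turned to 0.29 under median centring. Its second probe was at background throughout, with the opposite sign on all 6 arrays. Xcl1 ratios ranged from -0.33 to 0.24.

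Of 23 listed receptors, 22 were on the array and 17 were tested. On average 2 were called lower (Ackr1 and Ackr2) and 0 higher, beside 13.1% of all genes called and 3.4% called lower. Both are atypical receptors, which bind chemokines without G protein signalling. Ackr2, which clears inflammatory CC ligands, had ratios of -1.07, -0.35, -0.50, -0.28, -0.98 and -1.04. Its mean was -0.71 (SE 0.10, adjusted p = 0.0151), and its day 7 mean was -1.01 (SE 0.18, adjusted p = 0.0391). Ackr1, found on venules and red cells, averaged -0.39 (SE 0.10, adjusted p = 0.0469), with ratios of 0.06, -0.42, -0.27, -0.64, -0.70 and -0.37. The median of the 17 was -0.08, beside 0.03 for all genes. Ccr2 averaged -0.38 (SE 0.12, adjusted p = 0.0741), Ccr7 -0.31 (adjusted p = 0.103), Cxcr6 -0.35 (adjusted p = 0.107) and Cxcr4 0.13 (adjusted p = 0.204). The platelet chemokine Pf4, whose symbol the rule does not match, had ratios of 4.77, 0.17, -3.55, -2.85, 1.58 and 0.66, and its replicates at day 2 differed by more than those of any ligand described here.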

How the data were processed

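The deposited scanner files hold the median intensity of each spot in both channels, background flags and processed intensities. The submitters' processing notes name Agilent Feature Extraction 9.1 as the scanner software. The deposited log10 ratio of Cy5 over Cy3 was used as an alternative. Each of the 6 arrays had 45018 spots. Control spots (1639) and outlier spots (15 to 126 an array) were dropped, and saturation affected 0 spots. Median intensities were corrected by normexp (offset 50) and loess-normalized within arrays in limma 3.58.1 (R 4.3.3 with the data.table package, version 1.17.8), which gave log2 ratios with cyclosporin A on top. Signals per channel came from quantile scaling of the arrays' average intensity. Probes were named by accession through RefSeq (GRCm38.p6), with 22951 named so, 67 by symbol or synonym and 18156 without a symbol. The genome build of the array is not given in the sources used here.

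Probes detected on both arrays of some day in at least 1 of the channels were kept (27942), and the brightest probe stood for each of 22756 genes. Of these, 13479 had a symbol, and 9277 were probes without a symbol, each counted as a gene of its own. limma fitted 1 mean per day to all arrays (3 residual and 3.76 prior degrees of freedom). The 3 days, their average and the 3 differences between days were tested over all genes, at an adjusted p under 0.05. The steps were tested on simulated data. With 2 arrays a day, their number limits the precision.

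Values on every array are printed for chemokines called in any comparison, the 8 with the largest average ratio and the 8 with the largest day 7 ratio, and for a few others chosen after their values were seen (Ccl5, Ccl6, Ccl8, Ccl9, Ccl17, Ccl19, Cxcl17 and others by range). The members, lists and alternatives were chosen with earlier results of these data known. Replicate numbers are those of the titles, since each description reads replicate 1.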

Additional observations from a re-analysis of the deposited data

How the results depend on the processing

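Cxcl9 was below 0 in all 14 alternatives for the average (-1.89 to -1.05) and called in 13 (adjusted p 0.000332 to 0.0538). Cxcl10 was below 0 in all 14 and called in 12 (-1.20 to -0.55, adjusted p 0.00247 to 0.0758). Ccl25 was above 0 in all 14 and called in 5 (0.18 to 0.80, adjusted p 0.000313 to 0.104). Cxcl9 at day 7 was below 0 in all 15 alternatives and called in 5 (adjusted p 0.0214 to 0.245). The day 7 count of 1 chemokine became 0 with processed signals, scaling between arrays, no filter, detection in both channels on all arrays, each slide alone, and the replicate block. Leaving out 1 array gave 0 to 1 at day 7 (0 without any day 4 or day 7 array) and 0 to 3 for the average, with 1 (Cxcl9) without day 4 replicate 1 and 0 without day 4 replicate 2. Without day 2 replicate 2 the 3 were Cxcl9, Cxcl10 and, higher, Ccl8. No filter gave 4 for the average, with Cxcl5, at background, added.

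Centring each array on its median moved the median of all genes by far more than the other settings, to 0.39 at day 2, 0.27 at day 4, 0.17 at day 7 and 0.28 on average. It called 8 chemokines at day 2, 8 at day 4, 5 at day 7 and 12 on average, when it called 38.2%, 24.5%, 21.8% and 59.7% of all genes. On average 9 of the 12 were higher, against 1 of 3 with loess. Under it the day 7 ratio turned to 0.21 for Ccl24, 0.04 for Ccl27a and 0.04 for Cx3cl1, and the average to 0.37 for Ccl24, 0.45 for Ccl27a, 0.29 for Cx3cl1 and 0.36 for Cxcl16. The cause was not tested.

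The Cxcl13 average turned to -0.02 with scaling between arrays, -0.11 without day 2 replicate 2, -0.02 without day 4 replicate 2 and -0.16 without day 7 replicate 2, its range being -0.16 to 0.19 when 1 array was left out. Ccl7 turned to -0.03 on average without day 2 replicate 1 and reached 0.81 without day 2 replicate 2, and Ccl2 to -0.12 at day 7 without day 7 replicate 2. Differences of replicate 1 minus 2 correlated between days at 0.01 (days 2 and 4), -0.28 (2 and 7) and -0.02 (4 and 7). A ratio removes what both channels of an array share, so these values cannot settle whether the replicate numbers pair the arrays. With the replicate block the average kept its 3 calls and day 7 had 0.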
